A study of Mus musculus with 64 samples.

Results

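The microglia marker genes examined here are 31 mouse genes that are widely used to recognise microglia, and they were taken as every transcript row carrying 1 of these 31 gene names in the tables of all 64 libraries. Rows were found for 30 of the 31 genes, 116 transcripts in all, out of 46686 gene names. The remaining gene, Irf8, a transcription factor of the macrophage lineage, was not analysed here. In each library the FPKM (reads scaled to transcript length and to the mapped reads of the library) of a gene's transcripts were summed, and all 30 genes passed the filter of a mean of at least 0.1 FPKM in 1 of the tissues, as did 36989 gene names.

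The libraries came from the nucleus accumbens (NAc) and prefrontal cortex (PFCx) of C57BL/6N mice, adult males of 8 to 10 weeks, dissected 2 h after 1 intraperitoneal injection. There were 4 libraries per drug and tissue for haloperidol (1 mg/kg) and risperidone (0.5 mg/kg), both antipsychotics, for methamphetamine (2 mg/kg), a psychostimulant, for mianserin (20 mg/kg) and venlafaxine (16 mg/kg), both antidepressants, and for ketamine (20 mg/kg), an NMDA receptor antagonist. Haloperidol and risperidone were dissolved in saline with a drop of hydrochloric acid. There were 8 saline libraries per tissue, in saline groups I and II of the labels, with 4 libraries each. In the NAc, the haloperidol, risperidone, methamphetamine and saline set I libraries held between 85287 and 87827 transcripts above 0, and all other libraries of the series at least 107099, so that these 4 groups were treated as sample set I and the other 4 as sample set II. The PFCx libraries show no such gap and were divided by the same groups. Each drug therefore lies in only 1 sample set, and the drug tests below were run against all 8 saline libraries and against the 4 of the drug's own set. The tables hold no read counts, but coverage divided by FPKM put the aligned bases of a library at 1.52 to 3.26 gigabases. The tissue labels were checked against neuronal markers: all 12 genes of striatal medium spiny neurons that were tested were higher in the NAc after saline, and 11 of 12 genes of cortical projection neurons were higher in the PFCx. The labels number the replicates without tying a library to a mouse, and p-values measure the spread between these libraries.

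Microglia are the resident macrophages of the brain. They enter the brain early in development, depend on signalling through the receptor Csf1r, survey their surroundings through nucleotide and chemokine receptors such as P2ry12 and Cx3cr1, and take up cell debris and synapses, in part after these have been tagged by complement C1q. Their genes are governed by the transcription factor PU.1, the product of Spi1, which binds sequences built around a GGAA core. In RNA from whole tissue, fewer microglia and less RNA per microglial cell cannot be told apart.

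Promoter windows were available in RefSeq for 21 of the 30 genes (build GRCm38.p6, from 250 bases before to 50 bases after the start of transcription, 23 windows in all). The motif GGAAGT, searched on both strands, was present in 12 of the 23 windows and in 23.8% of all 32851 windows. GAGGAA, which can overlap it, was present in 16 of the 23 and in 28.3% of all. Windows with both numbered 10 of 23, against 8.65% of all. Fcgr3 and Ptprc have 2 overlapping windows each, so that a GAGGAA site of Fcgr3 and a GGAAGT site of Ptprc are counted in both of their windows. Such a match describes the letters in the window and not a bound site. The 250 bases before the start are shown for the 6 genes that differed between the tissues (below) and have a window, on the strand of the gene and 5′ to 3′, with both motifs in capitals, also where they lie on the opposite strand and so appear reverse complemented. C1qb and C1qc are neighbours on chromosome 4. The windows are C1qb at chr4:136886201-136886450 (minus strand), C1qc at chr4:136892915-136893164 (minus), Cd68 at chr11:69666171-69666420 (minus), Itgam at chr7:128062390-128062639 (plus), Ptprc at chr1:138175306-138175555 (minus, the further upstream of its 2 windows) and Cx3cr1 at chr9:120068297-120068546 (minus).
C1qb: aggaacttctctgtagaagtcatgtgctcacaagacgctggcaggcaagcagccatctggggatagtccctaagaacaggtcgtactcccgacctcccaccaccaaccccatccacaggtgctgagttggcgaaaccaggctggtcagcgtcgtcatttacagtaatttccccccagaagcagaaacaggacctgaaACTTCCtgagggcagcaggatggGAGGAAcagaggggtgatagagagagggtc
C1qc: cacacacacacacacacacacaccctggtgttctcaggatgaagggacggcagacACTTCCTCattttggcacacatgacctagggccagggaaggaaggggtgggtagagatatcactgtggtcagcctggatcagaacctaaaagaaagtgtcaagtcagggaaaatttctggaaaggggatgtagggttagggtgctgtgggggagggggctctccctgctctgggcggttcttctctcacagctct
Cd68: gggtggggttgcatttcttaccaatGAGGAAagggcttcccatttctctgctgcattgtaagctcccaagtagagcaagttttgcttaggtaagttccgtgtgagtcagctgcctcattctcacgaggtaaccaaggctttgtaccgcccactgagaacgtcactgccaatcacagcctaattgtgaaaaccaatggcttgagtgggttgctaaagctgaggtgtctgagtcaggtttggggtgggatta
Itgam: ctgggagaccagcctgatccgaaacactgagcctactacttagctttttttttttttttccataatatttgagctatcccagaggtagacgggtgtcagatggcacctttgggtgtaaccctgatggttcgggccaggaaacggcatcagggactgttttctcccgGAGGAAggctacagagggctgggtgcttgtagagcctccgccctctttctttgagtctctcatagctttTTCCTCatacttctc
Ptprc: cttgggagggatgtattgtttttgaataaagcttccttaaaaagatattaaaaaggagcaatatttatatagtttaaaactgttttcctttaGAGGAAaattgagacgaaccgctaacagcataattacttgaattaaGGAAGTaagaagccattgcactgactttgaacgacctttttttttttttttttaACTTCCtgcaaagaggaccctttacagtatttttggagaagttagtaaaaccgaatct
Cx3cr1: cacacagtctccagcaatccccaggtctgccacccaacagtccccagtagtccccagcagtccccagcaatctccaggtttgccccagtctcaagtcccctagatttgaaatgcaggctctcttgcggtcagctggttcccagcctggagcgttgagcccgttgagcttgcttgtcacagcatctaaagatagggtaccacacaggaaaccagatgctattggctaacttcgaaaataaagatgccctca
The C1qc stretch held both motifs in 1 overlapping run, 195 and 193 bases before the start, and the C1qb stretch held them 53 and 30 bases before the start. The Ptprc stretch held 3 matches, that of Itgam 2 and that of Cd68 1, and the Cx3cr1 stretch held none.

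**Figure D1:**
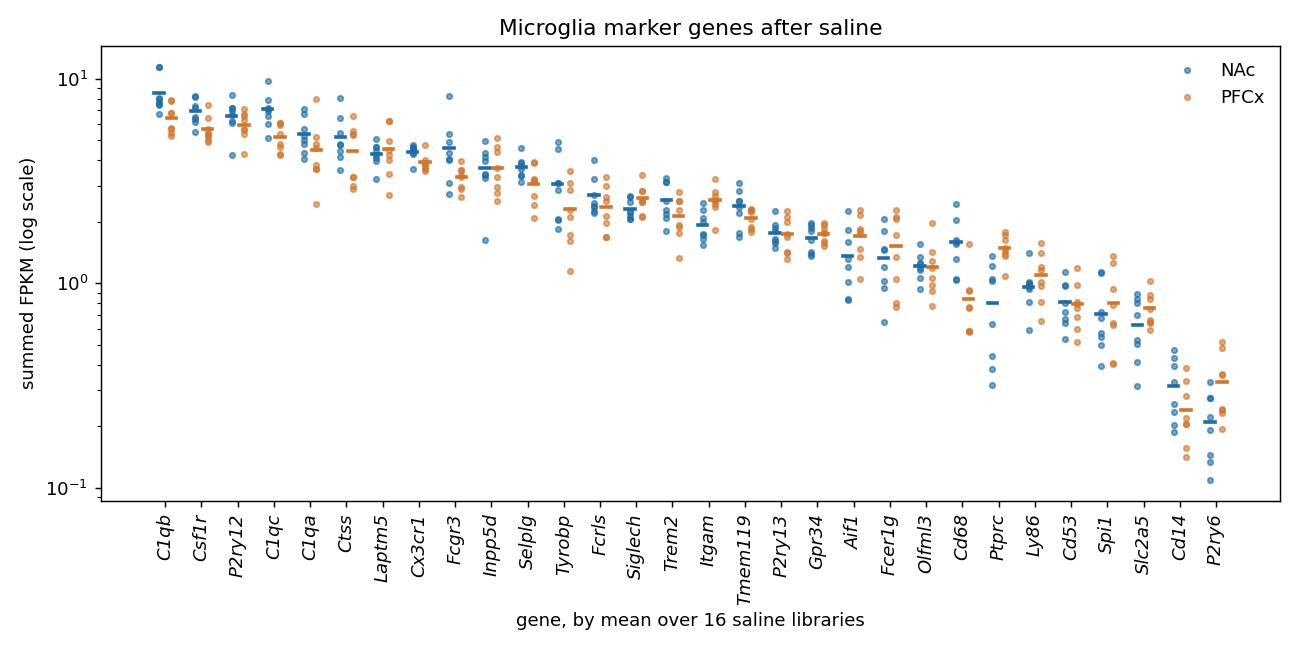
Summed FPKM (log scale) of the 30 genes in the saline libraries of the NAc (blue) and PFCx (orange), with 1 point per library and a bar at each mean of 8. Genes are ordered by the mean over 16 libraries, from C1qb at 7.49 to P2ry6 at 0.269.

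The marker genes were measured at low to moderate levels after saline, and 4 of the 30 had a mean above 5 FPKM over the 16 saline libraries. The 3 chains of complement C1q, which starts the classical complement cascade, were at 7.49 ± 1.81 (C1qb), 6.13 ± 1.46 (C1qc) and 4.94 ± 1.41 FPKM (C1qa; SD, n = 16). Csf1r, the receptor for colony stimulating factor 1, reached 6.30 ± 1.08 and Cx3cr1, the fractalkine receptor, 4.15 ± 0.43. These 5 genes are among the 8 highest. Of the receptors coupled to G proteins, P2ry12, which senses ADP and guides microglial processes, had 6.28 ± 1.07, its neighbour on chromosome 3 P2ry13 1.76 ± 0.30, Gpr34, a lysophosphatidylserine receptor, 1.71 ± 0.21 and P2ry6, a UDP receptor of phagocytosis, 0.269 ± 0.116. The nucleotide receptors thus spanned the whole order from rank 3 to rank 30.

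Among the immune receptors that signal through tyrosine motifs, Fcgr3, an Fc receptor for IgG, had 3.94 ± 1.38 FPKM and Trem2, a lipid-sensing receptor, 2.34 ± 0.55, while their adaptors Tyrobp and Fcer1g had 2.67 ± 1.03 and 1.42 ± 0.53. Inpp5d, a lipid phosphatase that restrains such signals, had 3.66 ± 0.94. Of the lysosomal and endosomal genes, the protease Ctss had 4.81 ± 1.45, Laptm5 4.40 ± 0.93 and Cd68 1.21 ± 0.55. The order separates few neighbours, since 27 of 29 adjacent pairs differed by less than the larger of their SDs. Itgam, an integrin chain of the complement receptor, and Tmem119, a surface protein typical of microglia, lay near the middle (the name Itgam covers 2 gene identifiers), at 2.24 ± 0.475 and 2.23 ± 0.396. Ptprc, the tyrosine phosphatase shared by all white blood cells, had 1.15 ± 0.47 and Spi1 0.755 ± 0.315. Of the other surface proteins, Selplg had 3.38 ± 0.627, the Fc receptor-like Fcrls 2.54 ± 0.610, Siglech, a sialic acid-binding lectin, 2.46 ± 0.362, Ly86, a partner of a Toll-like receptor relative, 1.03 ± 0.268, the tetraspanin Cd53 0.80 ± 0.203 and the fructose transporter Slc2a5 0.689 ± 0.190. The cytoplasmic Aif1 had 1.54 ± 0.479 and the secreted Olfml3 1.21 ± 0.287. Part of these sums lay in transcripts annotated as retained introns. Over all libraries their mean share per tissue and sample set was 64.4 to 77.3% for Ptprc, 54.8 to 72.9% for Olfml3 and 34.7 to 43.6% for Aif1. The lowest genes rest on few reads: the aligned length behind a library's value had a median of 0.747 kilobases for P2ry6 and 0.432 for Cd14, a co-receptor for lipopolysaccharide at 0.277 ± 0.102 FPKM, against 59.1 for Csf1r. No library had any of the 30 genes at 0.

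The comparison of tissues asked where microglial transcripts are more abundant after saline. The genes did not move as a block: 5 of the 30 were higher in the NAc, 2 were higher in the PFCx and 23 did not pass (limma across all genes, Benjamini-Hochberg adjusted p under 0.05). Among all 36989 genes, 33.9% passed, so that 7 of 30 is below the background. The median difference of the 30 genes was 0.05 on the log2(FPKM + 1) scale, where positive values are higher in the NAc, and that of all genes was -0.10. The summed FPKM of the 30 genes averaged 88.65 ± 9.15 for the NAc and 78.9 ± 9.04 for the PFCx (SD, n = 8), with ranges of 77.9 to 104.4 and 64.45 to 89.95 that overlap.

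Of the C1q genes, C1qc ranged from 5.16 to 9.79 FPKM in the NAc with a median of 7.02 and from 4.22 to 6.10 in the PFCx with a median of 5.08. C1qb ranged from 6.76 to 11.5 with a median of 7.85 in the NAc and from 5.27 to 7.87 with a median of 6.27 in the PFCx. Both were higher in the NAc with overlapping ranges (at 0.01 for C1qc and -0.03 for C1qb, neither called, when libraries were rescaled to the same 75th percentile of the values above 0), C1qc by 0.38 ± 0.10 (log2 difference ± SE, adjusted p = 0.00992 by limma, exact permutation p = 0.00357) and C1qb by 0.36 ± 0.11 (adjusted p = 0.0202 by limma, exact permutation p = 0.00762). The rescaling to the 75th percentile uses the values above 0, of which NAc set I has fewer. It therefore moves that group by construction, here and in each use below. The third chain, C1qa, differed by 0.24 with an adjusted p of 0.225 by limma.

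Cd68, a lysosomal glycoprotein of phagocytes, ranged from 1.04 to 2.44 FPKM in the NAc with a median of 1.58 and from 0.575 to 1.55 in the PFCx with a median of 0.760. Its mean in the NAc was 1.90 times that in the PFCx (0.49 ± 0.12 on the log2 scale, adjusted p = 0.00459 by limma, exact permutation p = 0.00187). This ratio is that of a sum over 3 Cd68 transcripts, of which 2 are protein coding. None of the 3 passed between the tissues when tested singly, so the ratio does not describe the coding transcripts alone. A single PFCx library, replicate 4 of saline set I, stood at 1.55 while the other 7 lay at or below 0.932. Under the rescaling to the 75th percentile Cd68 differed by 0.28 and did not pass (adjusted p = 0.125 by limma). Csf1r was at 5.51 to 8.21 with a median of 6.83 in the NAc and at 4.90 to 7.43 with a median of 5.39 in the PFCx, a difference of 0.24 ± 0.08 (adjusted p = 0.0357 by limma, exact permutation p = 0.0174). Cx3cr1 was at 3.63 to 4.74 with a median of 4.50 and at 3.55 to 4.72 with a median of 3.85, a difference of 0.14 ± 0.05 (adjusted p = 0.0497 by limma, exact permutation p = 0.016). The direction of both turned under the rescaling to the 75th percentile, which moves NAc set I by construction, to -0.13 for Csf1r and -0.20 for Cx3cr1. Leaving out 1 library also ended the call of Csf1r in 9 and that of Cx3cr1 in 14 of 16 fits, with adjusted p up to 0.072 and 0.089 and differences of 0.21 to 0.29 and 0.13 to 0.17.

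The genes higher in the PFCx were Ptprc and Itgam. Ptprc ranged from 0.317 to 1.36 FPKM in the NAc with a median of 0.831 and from 1.08 to 1.77 in the PFCx with a median of 1.46, a difference of -0.49 ± 0.12 (adjusted p = 0.00528 by limma, exact permutation p = 0.00109). Itgam ranged from 1.53 to 2.47 with a median of 1.87 and from 1.82 to 3.22 with a median of 2.54, a difference of -0.27 ± 0.08 (adjusted p = 0.0151 by limma, exact permutation p = 0.00606). The summed means of Itgam were 1.93 (NAc) and 2.55 FPKM (PFCx). Part of this gap lay in a minor transcript, ENSMUST00000156593, with means of 0.135 and 0.541. The main Itgam transcript, ENSMUST00000106242, did not pass between the tissues, so the call describes the sum and not that transcript. Over the 23 genes that did not pass, the difference ran from -0.21 for Aif1, a calcium-binding actin regulator, to 0.34 for Fcgr3, and for 19 of them its 95% interval lay within -0.5 to 0.5.

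**Figure D2:**
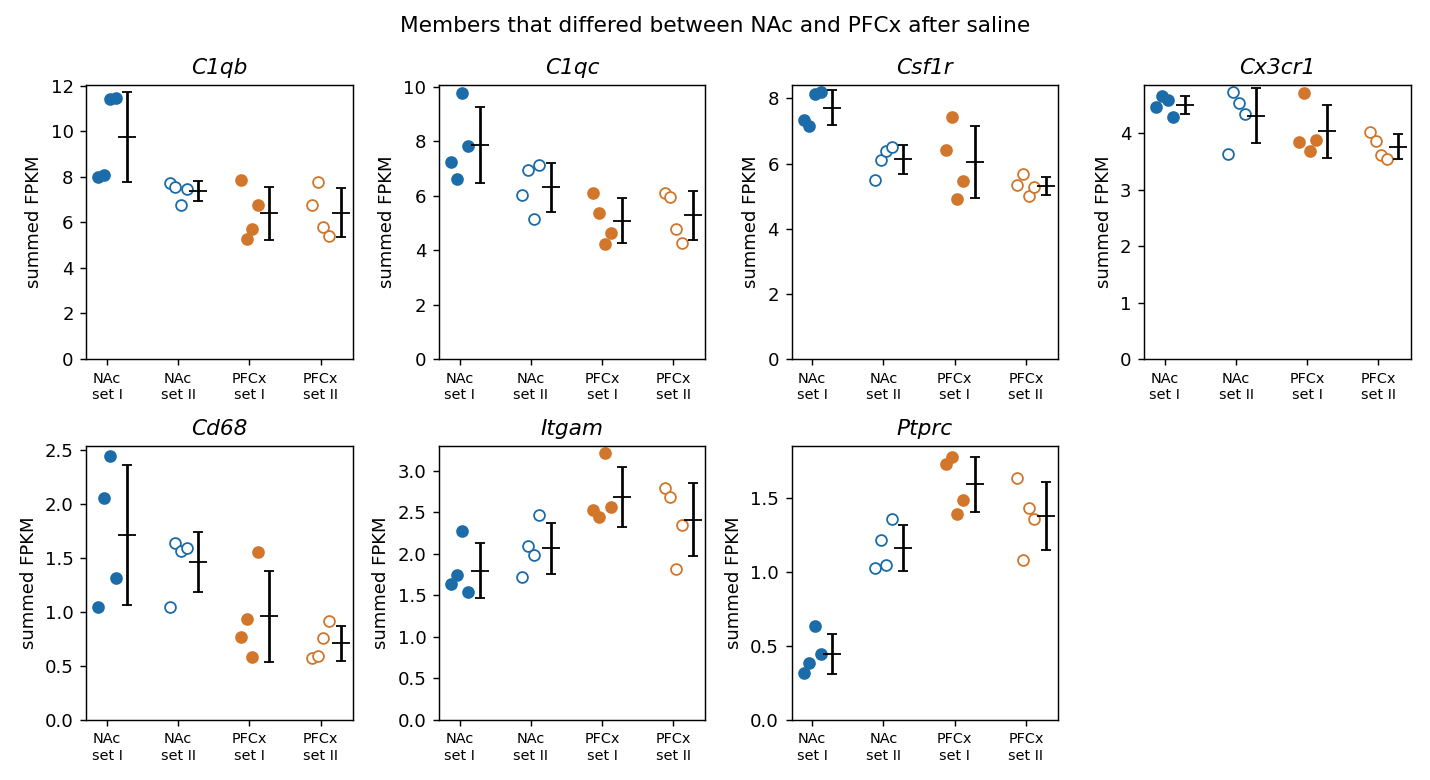
Summed FPKM of the 7 genes that differed between the tissues, in the saline libraries of each tissue and set (filled, set I; open, set II), with 1 point per library and the mean ± SD of 4 beside it. The 4 set I libraries of Ptprc in the NAc reach at most 0.634, below all other saline libraries.

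Within the saline sets the 7 differences kept their sign, as did 23 over all 30 genes, but fewer passed. The 7 were picked with these same libraries, so their shared sign is no separate check. In set I alone (4 against 4 libraries) 6 genes passed against a background of 35.4%, namely C1qb, C1qc, Itgam, Ptprc, Tmem119 and P2ry6 (C1qb, C1qc and Tmem119 turned to -0.29, -0.25 and -0.45 under the 75th percentile rescaling). Leaving out 1 of the 8 libraries of set I ended the call of Tmem119 in 6 fits (adjusted p up to 0.0944, difference 0.148 to 0.197 by limma), that of C1qb in 5 (up to 0.0778, 0.453 to 0.559) and, without NAc replicate 1, those of P2ry6 (-0.231, adjusted p = 0.0534) and Itgam (-0.375, adjusted p = 0.0501). In set II alone 2 passed against 20.9%, namely Cd68 (0.52, adjusted p = 0.0062 by limma) and Ctss (0.34, adjusted p = 0.015 by limma). C1qb differed by 0.53 in set I (adjusted p = 0.032 by limma) and by 0.18 in set II (adjusted p = 0.27 by limma), and C1qc by 0.54 and 0.22 (adjusted p = 0.017 and 0.28 by limma). Ptprc differed by -0.85 in set I and by -0.13 in set II (adjusted p = 0.00033 and 0.34 by limma). For Ptprc the tissue difference itself differed between the sets by -0.71 (adjusted p = 0.0047 by limma), the only 1 of the 30 genes for which it did, against 3.8% of all genes.

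The low level of Ptprc was common to the NAc libraries of sample set I, whatever the injection. The 4 values were 0.317, 0.382, 0.634 and 0.444 FPKM after saline, 0.257, 0.451, 0.410 and 0.460 after haloperidol, 0.262, 0.290, 0.224 and 0.325 after risperidone and 0.2804, 0.544, 0.462 and 0.289 after methamphetamine. The 16 NAc libraries of sample set II ranged from 0.880 to 1.53, and all PFCx libraries from 0.981 to 1.80, so that the NAc libraries of set I lay below all others. The Ptprc transcripts annotated as retained introns had a mean of 0.247 FPKM in the 16 NAc libraries of set I and of 0.873 in those of set II. This moved with the number of transcripts above 0 in the same libraries, and the part of that number in the result was not tested.

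A comparison of saline set I with saline set II, added after the sets had been seen, showed which marker genes differ between libraries that share an injection. In the NAc 4 genes passed against 24.8% of all genes, and in the PFCx 2 passed against 9.2%. Ctss was at 4.81, 5.45, 6.41 and 8.06 FPKM in NAc set I and at 3.58, 4.16, 4.45 and 4.72 in NAc set II. In the PFCx it was at 6.60, 5.54, 5.31 and 5.36 in set I and at 3.31, 3.30, 2.98 and 2.88 in set II. Ctss was thus higher in set I in both tissues with no overlap, by 0.44 ± 0.14 in the NAc (adjusted p = 0.024 by limma) and by 0.70 ± 0.11 in the PFCx (adjusted p = 8.0e-05 by limma).

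C1qa followed the same order, with 5.66, 5.23, 6.75 and 7.10 FPKM in NAc set I, 4.78, 4.32, 4.07 and 5.04 in NAc set II, 4.82, 5.20, 4.59 and 7.96 in PFCx set I and 3.62, 3.62, 3.81 and 2.45 in PFCx set II. The sets did not overlap in either tissue, and the difference was 0.37 ± 0.14 in the NAc (adjusted p = 0.064 by limma) and 0.59 ± 0.15 in the PFCx (adjusted p = 0.012 by limma). In the NAc alone, Csf1r (0.29 ± 0.06, adjusted p = 0.0014 by limma) and C1qb (0.34 ± 0.11, adjusted p = 0.027 by limma) were also higher in set I, with C1qb, Csf1r and Ctss turning to -0.60, -0.62 and -0.43 under the rescaling to the 75th percentile, and Ptprc was lower (-0.58 ± 0.08, adjusted p = 2.4e-05 by limma). Of the 28 genes that did not pass in the PFCx, 24 had a positive difference. Counting those that passed, 26 of the 30 genes were positive there, against 53.15% of all genes tested. The summed FPKM in the PFCx was 86.1 ± 4.4 in set I and 71.6 ± 5.6 in set II (SD, n = 4). Without replicate 4 of set I, which held the highest value of each, the NAc differences of C1qb (0.26) and Ctss (0.32) had adjusted p of 0.11 by limma, and without replicate 4 of PFCx set I that of C1qa (0.44) had an adjusted p of 0.076. C1qb also missed the threshold without replicate 3 of either NAc set (adjusted p = 0.10 for set I and 0.077 for set II by limma), Ctss without replicate 3 of NAc set I (0.053) or replicate 1 of NAc set II (0.076), and C1qa without replicate 4 of PFCx set II (0.073). Haemoglobin genes moved with the sets as well: Hba-a1 was at 18.5 ± 3.9 and 8.29 ± 1.75 FPKM in NAc sets I and II and at 23.3 ± 5.6 and 7.65 ± 1.99 in PFCx sets I and II. Their part in the marker genes' difference was not tested.

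**Figure D3:**
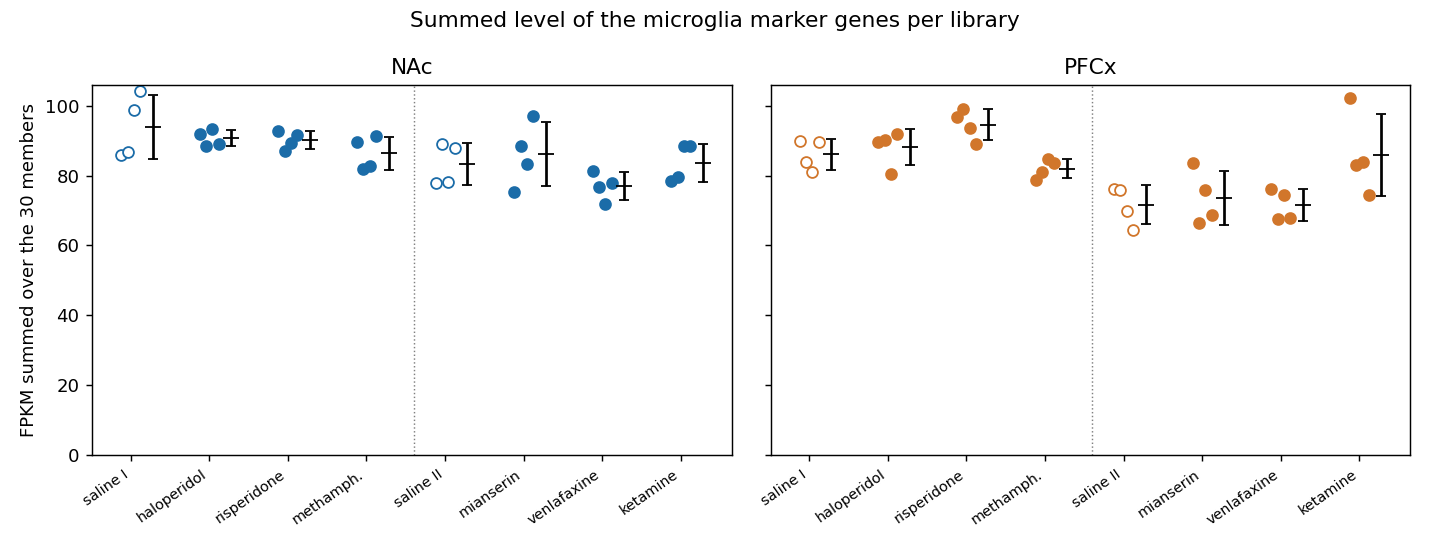
FPKM summed over the 30 genes in each library, by tissue and injection, with saline as open points and the mean ± SD of 4 beside them; the dotted line parts sample set I (left) from sample set II (right). The group means run from 77.05 (venlafaxine) to 93.98 (saline set I) in the NAc and from 71.5 (venlafaxine) to 94.65 (risperidone) in the PFCx.

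Few marker genes differed from saline 2 h after a drug. Against all 8 saline libraries, 3 of 180 pairs of gene and drug passed in the NAc and 1 of 180 in the PFCx: Gpr34 was lower after haloperidol and after risperidone in the NAc, C1qa was lower after venlafaxine in the NAc, and C1qb was higher after risperidone in the PFCx. Against saline of the matching sample set, none of these and no other pair passed. By limma the count was 0 of 180 in the NAc, against a background of 0.294% of all gene and drug pairs, and 0 of 180 in the PFCx, against 0.768%. At an unadjusted p under 0.05 there were 10 pairs in the NAc, or 5.56% against 7.09% of all pairs, and 27 in the PFCx, or 15% against 8.96%. An ordinary test in place of limma's moderated one also called 0 in both. A fit with the replicate number as a block is given below as an alternative only. It called Ctss in the PFCx after mianserin (0.28, adjusted p = 0.0414 by limma) and ketamine (0.38, adjusted p = 0.00761 by limma) with own-set saline. Against all 8 saline libraries, the only NAc pair it called was Gpr34 after risperidone. The 95% interval of the own-set difference lay, for 148 of the 180 NAc pairs and 139 of the 180 PFCx pairs, within -0.5 to 0.5 on the log2 scale.

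Per drug, the genes that passed against all 8 saline libraries numbered 1 after haloperidol (0.722% of all genes), 1 after risperidone (0.727%), 1 after venlafaxine (1.82%) and 0 after methamphetamine (0.195%), mianserin (1.85%) and ketamine (1.97%) in the NAc, by limma. In the PFCx they numbered 1 after risperidone (0.511%) and 0 after haloperidol (0.162%), methamphetamine (0.351%), mianserin (0.676%), venlafaxine (0.00541%) and ketamine (0.0162%). At an unadjusted p under 0.05 there were 27 of 180 pairs in the NAc, or 15% against 18.4% of all pairs, and 37 of 180 in the PFCx, or 20.6% against 10.35%. With 30 genes, 0 or 1 call per drug is too few to set apart from these shares.

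Gpr34 was at 1.02, 0.907, 1.18 and 1.15 FPKM after haloperidol and at 1.07, 1.12, 0.900 and 0.818 after risperidone in the NAc. The saline libraries were at 1.40, 1.36, 1.42 and 1.97 in set I and at 1.80, 1.92, 1.86 and 1.64 in set II. All 8 antipsychotic libraries lay below all 8 saline libraries. Against all saline the difference was -0.37 ± 0.09 after haloperidol (adjusted p = 0.047 by limma) and -0.43 ± 0.09 after risperidone (adjusted p = 0.016 by limma), each with an exact permutation p of 0.0040, the smallest that 495 splits allow. Against saline set I it was -0.29 (95% interval -0.49 to -0.10, adjusted p = 0.48 by limma) and -0.36 (-0.55 to -0.16, adjusted p = 0.22 by limma), each with an exact permutation p of 0.029, the smallest that 4 against 4 libraries can give. The haloperidol call was lost at a pseudocount of 0.1, with no filter, with a mean-variance trend, with the ordinary test and after the 75th percentile rescaling (adjusted p from 0.0503 to 0.0709), and the risperidone call after that rescaling (-0.66, adjusted p = 0.0672 by limma). The haloperidol call was also lost without 1 library for 21 of the 32 NAc libraries (adjusted p up to 0.15, difference -0.40 to -0.33) and the risperidone call for 2, without risperidone replicate 3 (adjusted p = 0.064 by limma) or replicate 4 (adjusted p = 0.089 by limma). In the PFCx, Gpr34 was at 1.34, 1.52, 0.939 and 1.23 after haloperidol and at 1.67, 1.82, 1.68 and 1.46 after risperidone, against 1.52 to 1.97 in the 8 saline libraries, and neither passed (-0.28 and -0.05 against all saline, adjusted p = 0.172 and 0.888, and -0.26 and -0.02 against set I, adjusted p = 0.79 and 0.998 by limma).

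C1qa was at 3.27, 3.44, 2.94 and 3.93 FPKM after venlafaxine in the NAc, below all 8 saline libraries, whose lowest was 4.07. The difference was -0.52 ± 0.14 against all saline (adjusted p = 0.047 by limma, exact permutation p = 0.0040) and -0.34 against set II (95% interval -0.62 to -0.06, adjusted p = 0.81 by limma). Rescaling to the 75th percentile, which moves the NAc saline libraries of set I by construction, left a difference of -0.06 (adjusted p = 0.737 by limma). The call was also lost among genes of at least 1 FPKM, after the median ratio rescaling and with only transcripts above 0 in every group (adjusted p from 0.0508 to 0.0689), and without 1 library for 22 of the 32 NAc libraries (adjusted p up to 0.20, difference -0.58 to -0.47). The saline mean of C1qa was 6.18 in set I and 4.55 in set II, and venlafaxine lies in set II.

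C1qb was at 9.12, 9.05, 9.45 and 7.87 FPKM after risperidone in the PFCx, against 7.87, 5.27, 5.71 and 6.77 in saline set I and 6.76, 7.77, 5.78 and 5.41 in set II. All 4 lay above all 8, the lowest only just. The difference was 0.42 ± 0.09 against all saline (adjusted p = 0.033 by limma, exact permutation p = 0.0040) and 0.43 against set I (95% interval 0.21 to 0.64, adjusted p = 0.17 by limma). The call was lost at a pseudocount of 0.1 (adjusted p = 0.0743 by limma), and without risperidone replicate 1, 2 or 3 or without replicate 3 or 4 of PFCx saline set II (adjusted p up to 0.13 by limma, difference 0.39 to 0.41).

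**Figure D4:**
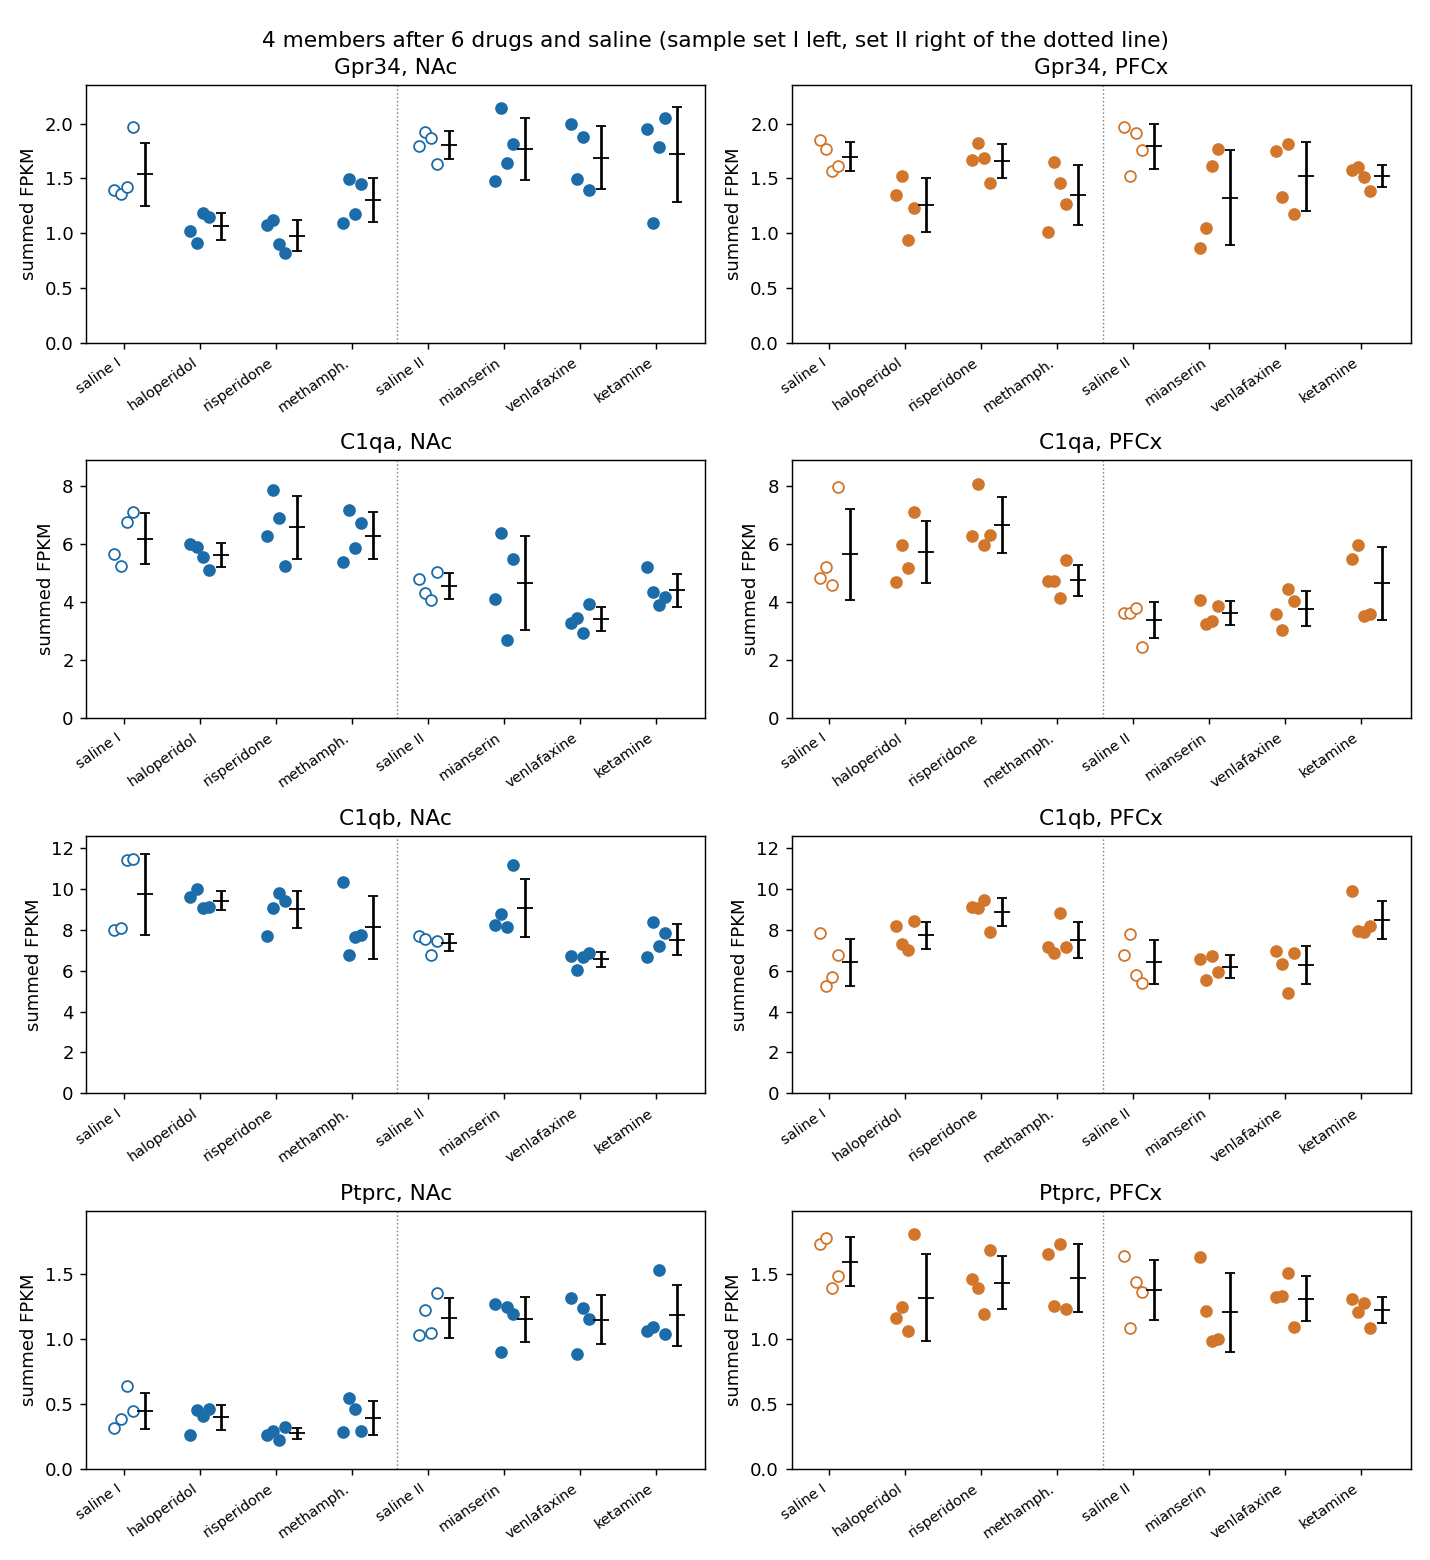
Summed FPKM of Gpr34, C1qa, C1qb and Ptprc in the NAc (left) and PFCx (right) by injection, with saline as open points and the mean ± SD of 4 beside each group; the dotted line parts sample set I from set II. Gpr34 in the NAc is lowest after haloperidol and risperidone, and Ptprc in the NAc is low in all 4 groups of set I.

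Pairs with every 1 of the 4 drug libraries beyond the 8 saline libraries numbered 3 of 180 in the NAc, against 1.39% of all gene and drug pairs, and 6 of 180 in the PFCx, against 1.05%. The 3 in the NAc are those described above. In the PFCx, 4 of the 6 came from risperidone, after which C1qb, C1qc, Fcgr3 and Tmem119 were above all saline libraries. C1qc was at 6.15 to 7.48 FPKM (difference 0.33, adjusted p = 0.16 by limma), Fcgr3 at 4.09 to 5.29 (0.42, adjusted p = 0.12 by limma) and Tmem119 at 2.47 to 3.29 (0.33, adjusted p = 0.17 by limma), none of which passed. Against set I the differences were 0.36 for C1qc, 0.35 for Fcgr3 and 0.24 for Tmem119 (adjusted p = 0.546, 0.662 and 0.860 by limma). Over the 30 genes, the median difference after risperidone in the PFCx was 0.18 against all saline and 0.08 against set I, while that of all genes was 0.001 and -0.006.

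The other pairs were C1qb after ketamine and P2ry13 after methamphetamine. C1qb after ketamine in the PFCx was at 9.89, 7.96, 7.91 and 8.21 FPKM, a difference of 0.36 against all saline (adjusted p = 0.28 by limma) and of 0.36 against set II (adjusted p = 0.11 by limma). P2ry13, an ADP receptor, was at 1.13, 1.30, 1.27 and 1.17 after methamphetamine in the PFCx, against 1.31 to 2.27 after saline, a difference of -0.30 (adjusted p = 0.26 by limma). Against set I, P2ry13 differed by -0.40 after methamphetamine, -0.35 after risperidone and -0.32 after haloperidol in the PFCx (adjusted p = 0.19, 0.32 and 0.59 by limma) and by -0.21, -0.32 and -0.11 in the NAc (adjusted p = 0.77, 0.25 and 1.0 by limma). Against all saline, risperidone and haloperidol gave -0.24 and -0.22 in the PFCx (adjusted p = 0.221 and 0.301 by limma) and -0.31 and -0.10 in the NAc (adjusted p = 0.068 and 0.485 by limma). These 3 drugs share their saline libraries in each tissue, and none passed. Without the replicate block, the lowest adjusted p of any own-set pair was 0.090 by limma, for Ctss after ketamine in the PFCx (0.38, 95% interval 0.16 to 0.59). There the difference from all saline was 0.025 (adjusted p = 0.979 by limma).

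**Figure D5:**
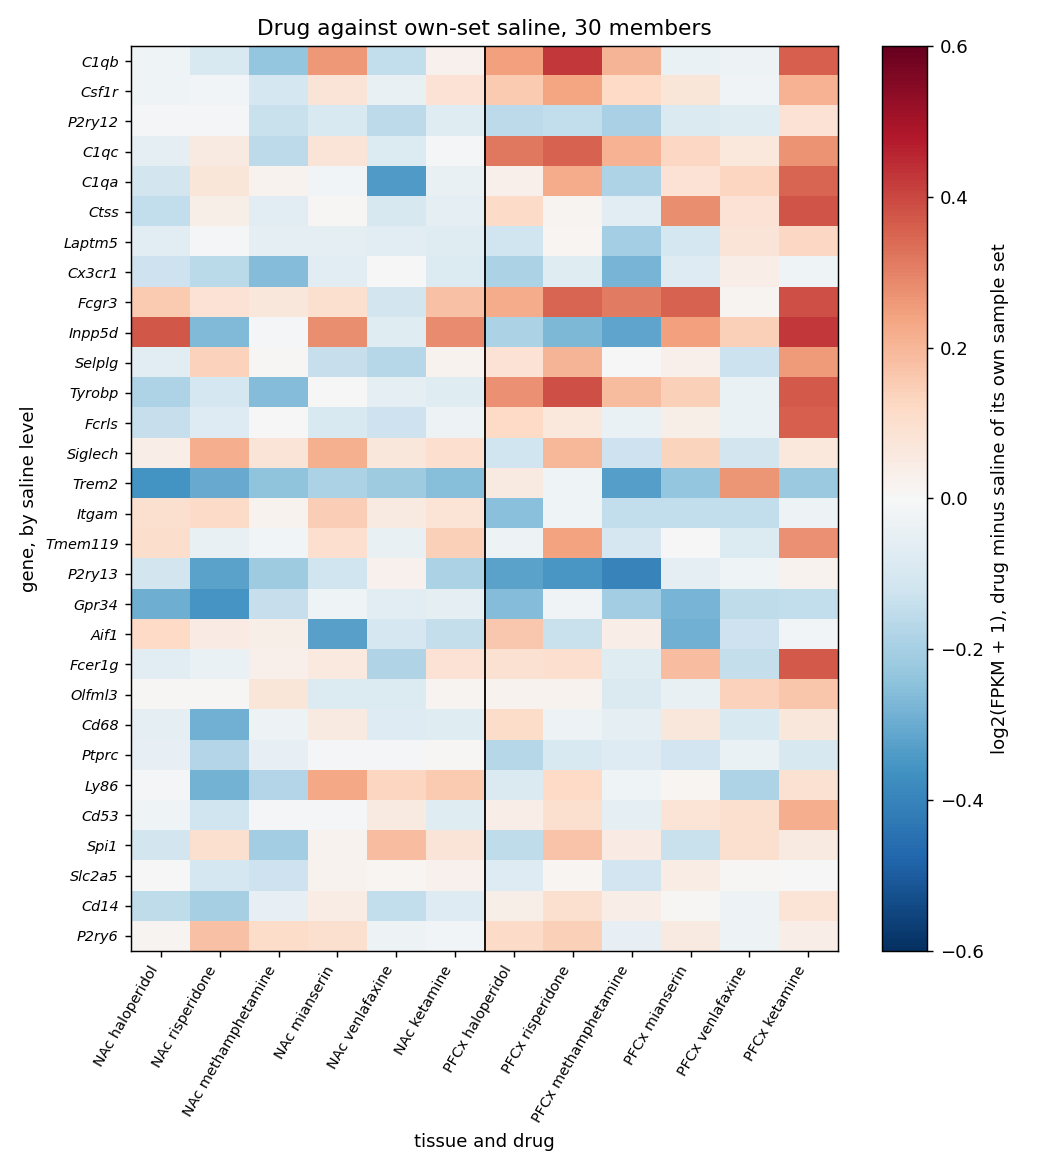
Log2(FPKM + 1) difference of each drug from saline of the matching sample set, for the 30 genes (rows, by saline level) and 6 drugs in each tissue (columns), with red higher and blue lower after the drug. The differences run from -0.36 to 0.37 in the NAc and from -0.40 to 0.43 in the PFCx, and none passed the test.

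The F test over all 6 drugs called 7 genes in the NAc against 37.0% of all genes, namely Ptprc, Gpr34, C1qa, Csf1r, P2ry13, Ctss and C1qb, and 1 in the PFCx, C1qb, against 3.35%. The pooled saline control leaves the difference between the sample sets in this test. With the saline of its own set as each drug's control, limma called 0 of 30 genes in the NAc (3 at an unadjusted p under 0.05) against 1.61%, and 0 in the PFCx (7 at an unadjusted p under 0.05) against 1.45%, where the lowest adjusted p was 0.055. With the replicate block, Ctss and C1qb passed this PFCx test (adjusted p = 0.0319 and 0.0473 by limma). A drug effect that differs between the tissues was called for 3 genes with pooled saline, against 12.9%: Ptprc (adjusted p = 7.5e-05 by limma), Gpr34 (0.019) and C1qb (0.038). With own-set saline it was called for 0 (2 at an unadjusted p under 0.05), against 0.752%, with a lowest adjusted p of 0.069.

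Single transcripts added detail to the tissue difference. Of the 97 transcripts tested, 6 differed between the tissues after saline, against 13.7% of all transcripts. Besides the main C1qb and C1qc transcripts, the main Selplg transcript ENSMUST00000100874, encoding the ligand of P-selectin, was higher in the NAc (3.15 ± 0.29 and 2.42 ± 0.42 FPKM, SD, n = 8, adjusted p = 0.021 by limma), while minor transcripts of P2ry12 (ENSMUST00000196583, 0.0852 and 0.556), Itgam (ENSMUST00000156593, 0.135 and 0.541) and Laptm5 (ENSMUST00000136082, 0.0042 and 0.874) were higher in the PFCx. The summed levels of Selplg, P2ry12 and Laptm5 did not pass between the tissues. NAc set I holds fewer transcripts above 0, and the part of that number in the calls of the minor transcripts was not tested. The main and minor transcripts of 1 gene share reads, so an error in one can pass to the other.

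The Laptm5 transcript ENSMUST00000136082 is a noncoding one of 355 bases at chr4:130913321-130926345. In the PFCx it had 1.52 ± 1.18 FPKM in saline set I and 0.231 ± 0.0996 in set II (SD, n = 4), and was 1 of the 3 transcripts that differed between the PFCx saline sets, against 4.47% of all, beside the main transcripts of Ctss and C1qa. It stayed at or below 0.0243 in the NAc saline libraries. A minor coding transcript of Cd68, ENSMUST00000108654, was the only member transcript that passed after a single drug: in the PFCx it was at 0.264 to 0.678 FPKM after mianserin and at most at 0.374 in the 8 saline libraries (0.50 ± 0.10, adjusted p = 0.020 by limma, background 0.351%) and at most at 0.00117 in those of set II (0.59 ± 0.11, adjusted p = 0.0085 by limma, background 0.916%). The summed Cd68 level did not pass after mianserin.

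Other genes of microglia and their neighbours were counted from lists that share no gene with the 30. Of 45 further microglial genes tested, 2 were higher in the NAc, Rgs10, a regulator of G protein signalling (9.63 ± 0.67 and 4.75 ± 1.39 FPKM, SD, n = 8), and Sall1, a transcription factor of microglial identity (1.84 ± 0.19 and 1.24 ± 0.16), and 9 were higher in the PFCx, led by the adaptor Blnk (0.640 ± 0.202 and 1.66 ± 0.17) and the lipid enzyme Lpcat2 (1.61 ± 0.20 and 2.17 ± 0.36). Rgs10 and Blnk passed in both saline sets. Of 24 genes raised in activated microglia, 1 was higher in the NAc (Lpl, a lipoprotein lipase) and 5 in the PFCx, led by Ptgs2, the inducible cyclooxygenase that cortical neurons also express (0.407 ± 0.164 and 2.32 ± 0.61), and Cd83 (1.05 ± 0.22 and 3.38 ± 0.69). The medians of both lists were -0.10, as was that of all genes. Of all genes tested, 33.9% passed in this comparison in either direction, and 26.2% had a positive difference. The NAc saline libraries of set I hold fewer transcripts above 0, and the part of that number in these calls was not tested. Of the genes of other brain cells, 13 of 13 oligodendrocyte genes were higher in the NAc, 4 of 8 oligodendrocyte precursor genes were higher and 1 was lower, 3 of 12 astrocyte genes were higher and 4 lower, 3 of 18 endothelial and mural genes were higher and 4 lower, and 2 of 10 pan-neuronal genes were higher and 7 lower.

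Between the saline sets of the NAc, 10 of the 45 further microglial genes passed, 9 of them lower in set I, and 9 of 24 activation genes passed, all lower in set I, against 24.8% of all genes. Among the latter was Cybb, the catalytic chain of the phagocyte oxidase (0.047 ± 0.062 and 0.716 ± 0.073 FPKM, SD, n = 4). In the PFCx 1 and 2 passed, against 9.2%. The NAc libraries of set I are those with fewer transcripts above 0, and the part of that number in these calls was not tested. After single drugs with own-set saline, Atf3, a stress-induced transcription factor, was higher after haloperidol in the NAc (0.781 ± 0.110 and 0.244 ± 0.105 FPKM, adjusted p = 0.0319 by limma, against 0.235% of all genes), as it was against all saline (adjusted p = 0.00953 by limma). Lpl was lower after mianserin, venlafaxine and ketamine in the PFCx (-0.51, -0.47 and -0.46, adjusted p = 0.0143, 0.0459 and 0.0335 by limma, against 2.01%, 0.741% and 1.51% of all genes), where saline set II had 3.93 ± 0.89 against 2.61 ± 0.39 in set I. Against all saline the differences of Lpl were -0.29, -0.25 and -0.24 and none passed (adjusted p = 0.4205, 0.694 and 0.616 by limma). The RNA is from whole tissue, so the cells that expressed Atf3, Lpl and the other genes of these lists cannot be told.

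Markers of other macrophages were low beside the microglial genes. The 10 genes of macrophages at the brain's borders summed to 2.57 to 5.995 FPKM in the NAc and 4.53 to 7.55 in the PFCx saline libraries, against 77.9 to 104.4 and 64.45 to 89.95 for the 30 marker genes. Of these 10, 1 was higher in the NAc, Cd163, a haemoglobin scavenger receptor (0.932 ± 0.1698 and 0.388 ± 0.091, SD, n = 8), and 6 in the PFCx, among them Mrc1, the mannose receptor (0.188 ± 0.086 and 0.426 ± 0.131), Ms4a7 and F13a1. Of all genes 33.9% passed. Ms4a7 and F13a1 were low in the NAc, at 0.205 and 0.116 FPKM. The NAc saline libraries of set I hold fewer transcripts above 0. The part of that number in the calls of this list and of the blood cell list was not tested. The blood cell list, which holds the haemoglobin genes, summed to 42.77 to 102.5 FPKM in the NAc and 41.22 to 131.1 in the PFCx saline libraries. Of its 16 genes tested, 6 were higher in the PFCx, against 33.9% of all genes that passed in either direction. Among the 6 were the B cell gene Ms4a1 (0.169 ± 0.137 and 0.480 ± 0.141), Ccr2 of monocytes, Cd3g and Nkg7. They moved in the direction of Ptprc and Itgam, which such cells also express. Most genes lay in that direction, since 26.2% of all genes had a positive difference. The part of the blood cell genes in the differences of Ptprc and Itgam was not tested.

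The 30 genes varied together only weakly from library to library. After removal of the group means, the median r over the 435 pairs of genes was 0.09 across the 32 NAc libraries and 0.12 across the 32 PFCx libraries, and 282 and 301 of the pairs were positive. The highest were P2ry13 with Gpr34 (r = 0.62) and with its neighbour P2ry12 (r = 0.60) in the NAc and Tmem119 with Siglech, a sialic acid receptor (r = 0.69), in the PFCx. These values describe libraries that share a scaling to depth. No pairs of other genes were set beside them, and the lowest genes rest on few reads (above), which limits r.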

How the data were processed

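RNA of the NAc and PFCx was sequenced in 64 libraries after depletion of ribosomal RNA. The authors deposited, for each library, the FPKM and the coverage (signal per base) of each transcript from Cufflinks 2.2.1 after alignment with TopHat2 2.0.1 to mm10, per the submitters' processing notes. FPKM of the transcripts of a gene were summed here, and genes with a mean of at least 0.1 FPKM in a tissue were tested as log2(FPKM + 1), a scale that understates the change of low genes. The depth in gigabases was estimated from coverage over FPKM in transcripts of at least 2000 bases and 5 FPKM, and it sets the precision of low genes.

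Groups were compared with limma 3.58.1 in R 4.3.3, with Benjamini-Hochberg adjustment over all genes and a threshold of 0.05, and 95% intervals from the SE and a normal quantile. Each drug was compared with all 8 saline libraries of its tissue, and again with the 4 of its own sample set. Single values were also compared by two-sided exact permutation tests over libraries (scipy 1.17.1). The scripts were tested on simulated data. Values per library are given for genes that passed in the tissue, drug or interaction tests, and for genes whose 4 drug libraries all lay outside the saline range. The members and lists were chosen with earlier results of these data known. The sample sets were read from the number of transcripts above 0, and the comparison of the saline sets and a rescaling by median ratios were added after seeing the data. Other alternatives were the pseudocount, the filter, the scaling, the ordinary test, a replicate block, a stricter threshold and leaving out each library.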

Additional observations from a re-analysis of the deposited data

Results flagged for a closer look

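In 15 of 196 groups tested, 1 library stood apart from the others of its group by Dixon's criterion at the 95% level, which chance alone gives in about 1 of 20 groups. For Cx3cr1 these were NAc haloperidol replicate 3 at 4.256 FPKM (others at most 3.997), NAc saline set II replicate 1 at 3.63 (others at least 4.282), PFCx risperidone replicate 4 at 3.194 (others at least 3.942) and PFCx saline set I replicate 2 at 4.722 (others at most 4.024). For the C1q genes they were C1qa in PFCx risperidone replicate 2 at 8.074 (others at most 6.309), and C1qb in PFCx methamphetamine replicate 3 at 8.804 (others at most 7.165) and in PFCx ketamine replicate 1 at 9.889 (others at most 8.211). NAc ketamine replicate 3 was high for both Itgam, at 3.193 (others at most 1.991), and Ptprc, at 1.532 (others at most 1.094). NAc mianserin replicate 1 was low for both Tmem119, at 1.657 (others at least 2.39), and Ctss, at 3.11 (others at least 4.555). The remaining libraries were NAc methamphetamine replicate 1 for P2ry13 at 1.175 (others at least 1.456), PFCx venlafaxine replicate 1 for P2ry13 at 1.623 (others at most 1.449), PFCx methamphetamine replicate 4 for P2ry6 at 0.4219 (others at most 0.279) and PFCx saline set I replicate 4 for Cd68 at 1.555 (others at most 0.9325).

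The tissue difference of Ptprc after saline differed between the saline sets by -0.7126 on the log2 scale (adjusted p = 0.004727 by limma). With all saline libraries as the control, the drug by tissue F test over the 6 drugs called C1qb (adjusted p = 0.03769 by limma), Gpr34 (adjusted p = 0.01907 by limma) and Ptprc (adjusted p = 7.497e-05 by limma). With the saline of each drug's own sample set as the control, none of these 3 genes passed.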

How the results depend on the processing

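The count of genes that differed between the tissues was 7. It became 4 after rescaling to the same 75th percentile, 2 with saline set II only, 0 at an adjusted p under 0.0001, and 5 to 8 without 1 library. The NAc F test called 7, then 28 after the 75th percentile rescaling, 0 at the stricter threshold, 0 with own-set saline and 5 to 8 without 1 library. The PFCx F test called 1, then 4 among genes of at least 1 FPKM, 3 with the replicate block, 2 with only transcripts above 0 in every group, 3 with saline set I only, 7 with set II only, 0 at the stricter threshold, 0 with own-set saline and 1 to 4 without 1 library. NAc pairs of gene and drug numbered 3, then 18 after the 75th percentile rescaling, 1 with the block, 19 with saline set I only, 16 with set II only, 0 at the stricter threshold, 0 with own-set saline and 0 to 4 without 1 library. PFCx pairs numbered 1, then 0 at a pseudocount of 0.1, 3 with saline set I only, 17 with set II only, 0 at the stricter threshold, 0 with own-set saline and 0 to 2 without 1 library. The drug by tissue test called 3, then 27 after the 75th percentile rescaling, 1 at the stricter threshold, 0 with own-set saline and 2 to 3 without 1 library. Between the saline sets the NAc count of 4 became 27 after the 75th percentile rescaling, 1 at the stricter threshold and 2 to 6 without 1 library, and the PFCx count of 2 became 5 among genes of at least 1 FPKM, 1 at the stricter threshold and 1 to 3 without 1 library. With own-set saline the PFCx F count of 0 became 1 among genes of at least 1 FPKM, after either rescaling (75th percentile or median ratio) and with transcripts above 0 in every group, and 2 with the block. The PFCx pairs became 2 with the block, and the drug by tissue count became 1 among genes of at least 1 FPKM and after either rescaling. All own-set counts were 0 to 1 without 1 library.

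The 75th percentile rescaling turned 9 values: the tissue differences of C1qb (-0.02955), Csf1r (-0.1333) and Cx3cr1 (-0.2017), those within saline set I of C1qb (-0.2869), C1qc (-0.254) and Tmem119 (-0.4498), and the NAc differences between saline sets of C1qb (-0.5965), Csf1r (-0.6249) and Ctss (-0.4335). It scales by values above 0, of which NAc set I has fewer, and moves that group by construction. Libraries with the same replicate number deviated together more often than others: within a tissue and sample set 76 of 96 same-numbered pairs had a correlation over 0.1 (mean 0.208, lowest -0.149), against 63 of 288 pairs with different numbers (mean -0.0658), and 52 of 64 libraries correlated best with their own number. This is a hint from the data. Since 20 pairs fell at or below 0.1 and no label ties a number to an animal, batch or day, the block is given as an alternative only. With it, the PFCx pairs called with own-set saline were Ctss after mianserin (0.28, adjusted p = 0.0414) and ketamine (0.38, adjusted p = 0.00761) and the PFCx F calls Ctss and C1qb (limma), and the NAc pair that remained with pooled saline was Gpr34 after risperidone. Genes at low levels are limited by the aligned length behind them.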
